A study of Homo sapiens with 6 samples.

Results

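The 44 genes described here act in S phase, when a cell copies its DNA. They are the rows, among 31628 in the deposited expression table, whose gene symbol was one of 44 names given for replication, and each name matched 1 row. By step they are 5 genes of origin licensing, 12 of the replicative helicase, 14 polymerases and fork factors, 4 of nucleotide supply, 5 of chromatin assembly and methylation, and 4 E2F regulators, checkpoint and repair genes. Of these, 37 reached a mean of 1 FPKM (fragments scaled to gene length and library size) over all libraries and entered the main test, which held 8317 genes. The 7 below it were CDC45, GINS3, POLA1, POLA2, PRIM1, POLE2 and RFC3.

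Poly(A) RNA was sequenced from HCT116, a colon cancer cell line in which the ENL gene (MLLT1) carries an auxin-inducible degron and which stably expresses the plant E3 ligase component AtAFB2. ENL reads acetylated histones, and auxin (indole-3-acetic acid, IAA) links the tagged protein to the ligase for destruction. The washout group was given IAA (500 um in the labels) for 3 hours, rinsed with PBS and grown in normal medium for 48 hours more. The IAA group was harvested after the same 3 hours, and the control group received no IAA. Every group carries the degron and the ligase and has 2 libraries. Degron clones were selected with puromycin and blasticidin, and the sources used here do not give how many clones the libraries come from. They also do not give how long the control cells were cultured, so time in culture and recovery cannot be told apart in the washout group. What a replicate number stands for is not stated, and p-values measure only the spread between these libraries, which may be technical.

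Library totals, as estimated from the steps between low FPKM values, lay between 16442840 and 16770850 reads, and 8220 to 8406 genes per library reached 1 FPKM. MLLT1 itself had 463 and 428 reads after washout, 445 and 402 with IAA, and 459 and 480 in control. Its change with IAA was -0.14 ± 0.101 (log2, SE, limma voom adjusted p = 0.336), and because the degron acts on the protein this transcript does not check the depletion. Of 12 colon epithelium markers 7 passed the filter, CDX1 and CEACAM5 were at 0 in every library, and the summed markers ran from 324 to 340 FPKM after washout, 269 to 273 with IAA and 337 to 347 in control. KRT18, KRT8 and KRT19, the keratins that make up most of that sum, were called lower with IAA and higher after washout than with IAA. On reads CDX2 and VIL1 went the other way, by 0.43 ± 0.127 and 0.31 ± 0.0971 with IAA (log2, voom adjusted p = 0.0117 and 0.0168) and by -0.34 ± 0.124 and -0.27 ± 0.0965 after washout against IAA (voom adjusted p = 0.0434 and 0.0371), and CDH1 passed neither test. The part of these markers in the results below was not tested. Summed markers did not pass 0.773 FPKM for fibroblasts, 0.0162 for endothelium and 0.106 for blood in any library, and 0 of these 15 genes passed the filter.

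DNA replication begins with licensing. ORC, CDC6 and CDT1 load the ring of MCM2 to MCM7 onto origins in G1, and geminin then blocks reloading. CDC45 and the GINS complex turn the ring into an active helicase, polymerases copy both strands behind it, and nucleosomes and DNA methylation are restored on the new duplexes. Many of these genes are transcribed under E2F factors as cells pass from G1 to S. In bulk RNA, fewer cells in S phase and less RNA per cell cannot be told apart.

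The control regions of these genes are shown first, since E2F motifs were found in some of them and not in others. Because many of these genes are transcribed under E2F factors, the choice of names itself favours a high share of E2F motifs. RefSeq promoter windows (assembly GRCh38.p14, 250 bases before to 50 after the start site) were found for 40 of the 44 members. The 4 E2F motifs searched on both strands were TTTCCCGC, TTTCGCGC, TTTGCCGC and TTTGGCGC. At least 1 was present in 22 of the 40 member promoters (55%), in 2 of 19 promoters of G2 and mitosis genes (10.5%) and in 3.33% of all 27305 windows. The CCAAT box, CCAAT on either strand, was in 22 of 40 members (55%), 15 of 19 G2 and mitosis genes (78.9%) and 35.7% of all windows. The CHR element TTTGAA, known from promoters of mitotic genes, was in 1 of 40 members (2.5%, in RRM1), 13 of 19 G2 and mitosis genes (68.4%) and 15.4% of all windows. These are letter matches and not tests of binding. The 250 bases before the start site follow for 4 of the called members, 5′ to 3′ on the gene's own strand, with E2F matches in capitals. The windows are chr19:4909251-4909500 on the plus strand for UHRF1, and on the minus strand chr1:23531234-23531483 for E2F2, chr3:186806483-186806732 for RFC4 and chr2:135876444-135876693 for MCM6.
UHRF1: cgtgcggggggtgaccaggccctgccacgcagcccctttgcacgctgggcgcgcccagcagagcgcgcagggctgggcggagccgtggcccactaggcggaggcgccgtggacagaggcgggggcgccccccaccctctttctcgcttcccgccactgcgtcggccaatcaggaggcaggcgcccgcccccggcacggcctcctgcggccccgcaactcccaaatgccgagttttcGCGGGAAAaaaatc
E2F2: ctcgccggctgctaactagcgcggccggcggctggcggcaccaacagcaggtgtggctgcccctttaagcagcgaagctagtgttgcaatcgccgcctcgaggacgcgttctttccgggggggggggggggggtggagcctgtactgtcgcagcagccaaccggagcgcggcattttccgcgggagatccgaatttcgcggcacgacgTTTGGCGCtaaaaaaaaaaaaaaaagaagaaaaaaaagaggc
RFC4: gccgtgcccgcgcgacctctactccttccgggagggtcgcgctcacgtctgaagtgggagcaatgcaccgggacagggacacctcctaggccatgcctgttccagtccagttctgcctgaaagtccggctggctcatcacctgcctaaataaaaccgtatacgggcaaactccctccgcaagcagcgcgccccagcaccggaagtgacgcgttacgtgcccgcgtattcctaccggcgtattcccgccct
MCM6: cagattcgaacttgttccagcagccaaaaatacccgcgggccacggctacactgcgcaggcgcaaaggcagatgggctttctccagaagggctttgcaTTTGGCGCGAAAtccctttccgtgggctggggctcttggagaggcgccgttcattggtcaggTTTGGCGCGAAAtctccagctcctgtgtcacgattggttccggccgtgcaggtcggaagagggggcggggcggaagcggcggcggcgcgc
UHRF1 has 1 match (TTTCCCGC read from the other strand, first base 14 before the start site) and E2F2 has 1 (TTTGGCGC, 42 before). MCM6 has 4 matches in 2 clusters, in each of which TTTGGCGC and the reverse complement of TTTCGCGC overlap by 4 bases. RFC4 has none of the 4 motifs in this window. Of the 6 members with a window that were called higher after washout than with IAA, 3 held an E2F match and 4 a CCAAT box.

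**Figure D1:**
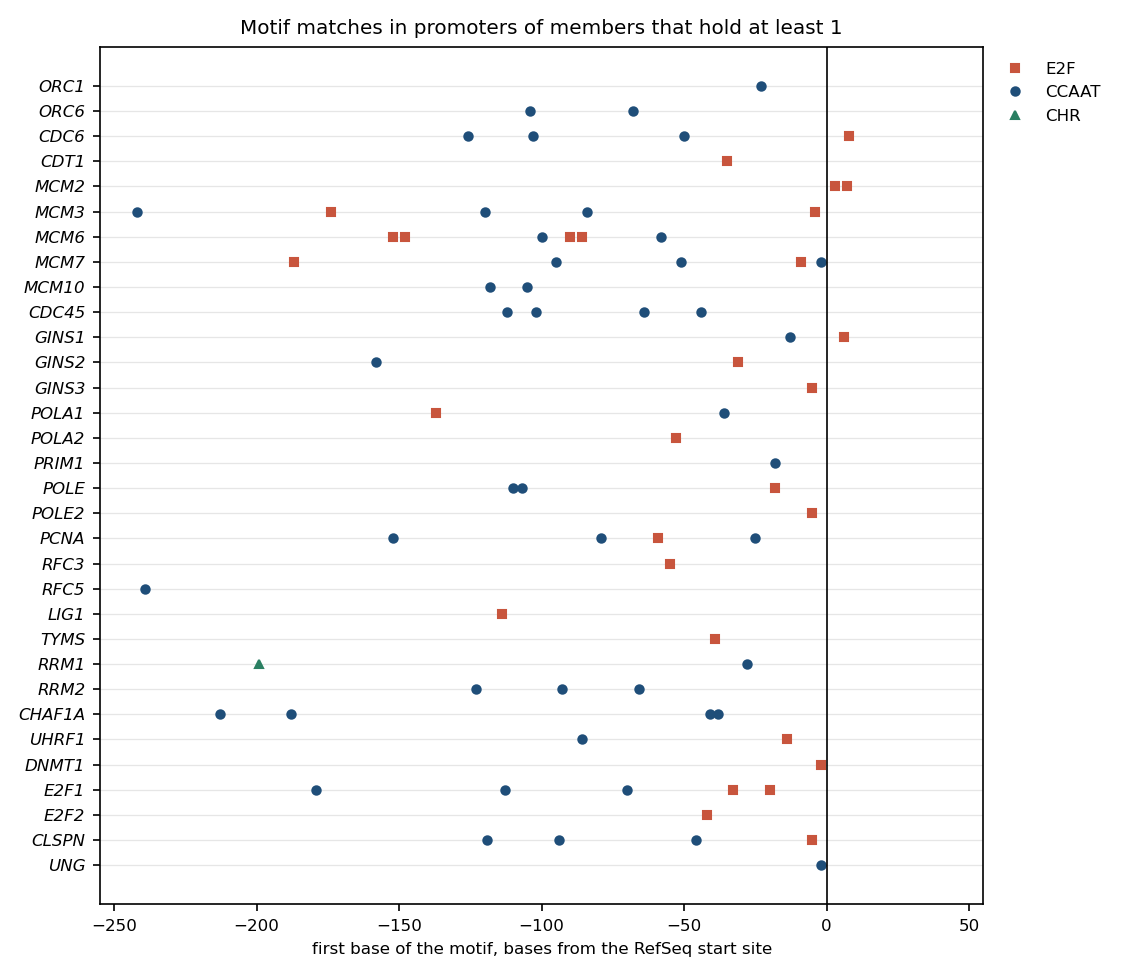
Positions of motif matches in the member promoters that hold at least 1, in bases from the RefSeq start site (horizontal axis), by gene in the order of the steps. Squares are E2F motifs, circles CCAAT boxes and the single triangle the CHR element. The E2F matches were in 22 of 40 members, and the only CHR match was in RRM1.

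Levels across genes were set side by side per kilobase of exon. The FPKM as deposited divide by the whole gene span with introns, so a long gene has a low value whatever its number of reads, and reads recovered from the FPKM steps were divided by GENCODE 29 exon length instead. On this scale TK1, the salvage kinase of thymidine, was highest at 146 ± 8.33 RPKM over exons, reads scaled to exon length and library size (SD, 6 libraries). PCNA, the sliding clamp, followed at 134 ± 5.94 and SLBP, which binds histone mRNA, at 114 ± 4.4. Among the subunits of the helicase ring MCM7 was at 105 ± 6.01, MCM3 at 102 ± 4.46, MCM4 at 83.4 ± 4.33, MCM6 at 78.1 ± 5.51, MCM2 at 56.9 ± 3.2 and MCM5 at 45.8 ± 4.81. TK1 and PCNA, MCM7 and MCM3, and MCM4 and MCM6 differed by less than the sum of their SDs. These SDs run over all groups and so include the differences between groups. In every group TK1 was above PCNA and MCM4 above MCM6. MCM7 was above MCM3 in control and after washout, but not with IAA (99.8 and 101). PCNAP3, a row named for a pseudogene of PCNA, holds 66.7% as many reads as PCNA, so the level of PCNA is uncertain. The lowest members were POLA2 at 6.54 ± 0.586, CHAF1B at 7.96 ± 0.526 and GINS4 at 8.46 ± 1.12 over all libraries. With IAA alone GINS4 was at 9.74, above E2F2 (7.68), CHAF1B (7.98), POLE2 (8.25) and PRIM1 (8.69). The 7 members under the FPKM filter therefore had 186 to 1293 reads per library in spite of their low FPKM.

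After 3 hours of IAA the median replication gene stood at or slightly below its control level, depending on the scaling. Single members moved in both directions. By limma on log2(FPKM + 1), with Benjamini-Hochberg adjustment over 8317 genes and changed meaning an adjusted p under 0.05, GINS4 rose and UHRF1 fell among the 37 tested members. That is 1 higher and 1 lower, beside 6.64% of all tested genes called higher and 6.49% lower (552 and 540 genes, or 405 and 636 when FPKM were rescaled to TPM). The median change of the members was 0.00 and that of all tested genes 0.01, and 18 of 37 members were above 0. Rescaling to TPM gave 14 above 0, and median-ratio scaling 15. On reads the member median was 0.00 with 21 of 44 above 0, beside 0.04 and 57.3% over all 14825 genes. With median-ratio scaling of the reads it was -0.04 with 17 above 0, beside 0.00 and 50.5% over all genes.

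UHRF1 recognises hemimethylated DNA behind the fork and brings DNMT1 to it. It had 2.53 and 2.6 FPKM after washout, 1.79 and 1.83 with IAA, and 2.24 and 2.41 in control. Both IAA libraries were the lowest, and no group overlapped another. The mean was 1.81 ± 0.0316 FPKM with IAA and 2.32 ± 0.124 in control (SD, n = 2 each), 0.779 of control, with a log2 change of -0.24 ± 0.0402 (SE, limma adjusted p = 0.0283). Without any 1 of the 6 libraries UHRF1 no longer passed by limma, and calls became fewer over the whole table as well. Its log2 change in these fits lay between -0.28 and -0.20. On recovered reads, 1738 and 1817 with IAA and 2195 and 2389 in control, it fell by 0.36 on the log2 scale (limma voom adjusted p = 8.28e-06) and was called with every library left out in turn. DNMT1, the maintenance methyltransferase itself, averaged 2.62 ± 0.101 FPKM with IAA and 2.63 ± 0.0306 in control.

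GINS4 encodes a subunit of the GINS complex, whose 4 subunits join CDC45 and the MCM ring. It had 2.98 and 2.75 FPKM after washout, 3.43 and 3.29 with IAA, and 2.58 and 2.48 in control. Both IAA libraries were the highest and both control libraries the lowest. The rise was 1.33-fold, with a log2 change of 0.30 ± 0.0455 (limma adjusted p = 0.0228). By limma it was lost without either IAA or either control library, fits in which calls also became fewer over the whole table. The log2 change of GINS4 there was 0.28 to 0.33. On reads the rise was called with every library left out (0.41 ± 0.0795 with all libraries, voom adjusted p = 0.000198). The other GINS subunits averaged 2.1 ± 0.0995 FPKM with IAA and 2.1 ± 0.039 in control for GINS1, and 2.8 ± 0.0253 with IAA and 2.9 ± 0.0821 in control for GINS2. GINS3, below the FPKM filter, had 697 and 629 reads with IAA and 686 and 591 in control (0.06 ± 0.0906 on reads, voom adjusted p = 0.677). GINS4 exons overlap 2 antisense genes in GENCODE 29, and the strand counted is not given, so its reads cannot be assigned with certainty.

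On recovered reads 4 members were called higher with IAA, beside 13.7% of 14825 genes, and 1 lower, beside 10.2%. Besides GINS4 these were TK1, RRM2 (a subunit of ribonucleotide reductase) and PCNA. TK1 had 20.3 and 19.7 FPKM after washout, 19.5 and 20.1 with IAA, and 17.6 and 18.2 in control, so that washout and IAA overlapped and control lay below both. Its change on reads with IAA was 0.15 ± 0.0437 (voom adjusted p = 0.0137), against an adjusted p of 0.103 by limma on FPKM. RRM2 had 38.8 FPKM in both IAA libraries and 35.1 and 35 in control (0.15 ± 0.0408 on reads, voom adjusted p = 0.00802). PCNA had 17.4 and 17.7 with IAA and 15.8 and 16.2 in control (0.14 ± 0.0462, voom adjusted p = 0.0301). TK1 was not called without control replicate 1 or IAA replicate 2, RRM2 without either control library, and PCNA without any of the 4 libraries compared. With median-ratio scaling of the reads 2 members were called higher (GINS4 and RRM2) and 4 lower (UHRF1, E2F2, RFC3 and FEN1). Over all 14825 genes that scaling gave 1605 higher and 1877 lower, and the member counts are not read as a result about the members. Rows named for pseudogenes of PCNA and RRM2 hold many reads here, 66.7% of the gene's for PCNAP3 and 65.3% for RRM2P3, so both genes share sequence with counted copies and their values are uncertain.

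By step, the median member of nucleotide supply stood at 106% and 107% of the control mean with IAA, and that of the polymerases and fork factors at 97.6% and 93.6%. The control libraries of these steps were at 101% and 99.1%, and at 101% and 99.4%. Of the 4 nucleotide supply genes 3 had both IAA libraries above both control libraries, and of the 9 tested polymerase and fork genes 4 had both below and 2 both above. Over all 37 tested members 11 were above without overlap and 14 below, beside 33.7% and 28.2% of all tested genes, and these counts are not read as a result about the members.

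**Figure D2:**
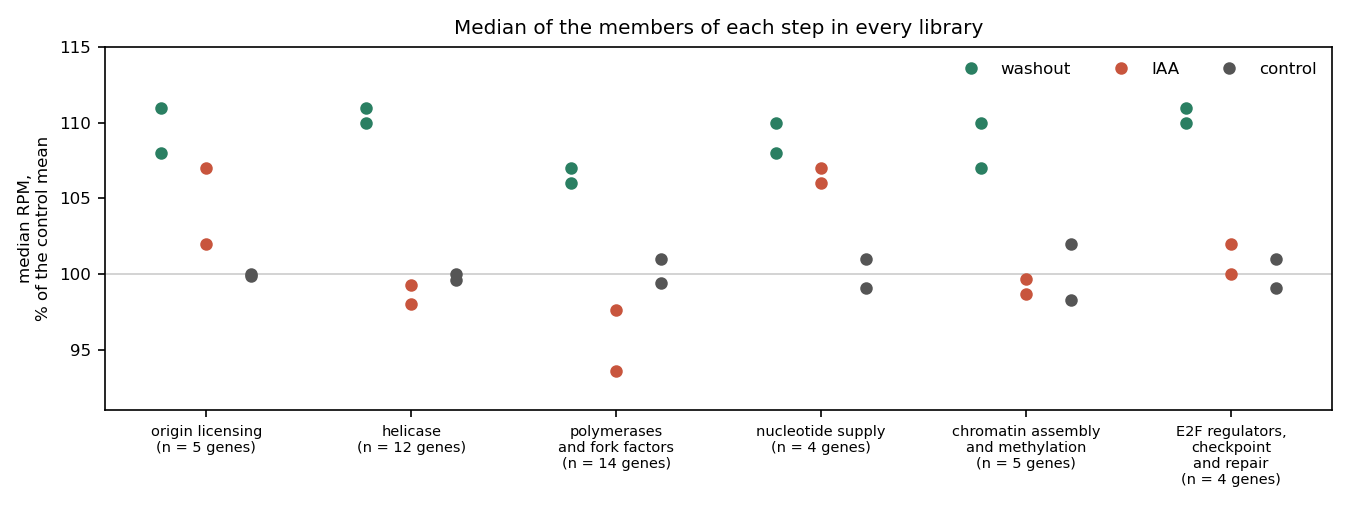
Median over the members of each step of their RPM (reads scaled to library size), as a percentage of the gene's control mean (vertical axis, cut at 91), for each library of the washout, IAA and control groups. Both washout points lie between 106% and 111% in every step, and the IAA points are spread from 93.6% to 107%.

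Once IAA had been washed out for 48 hours, most replication genes stood above their level with IAA. By limma 7 of the 37 tested members rose, beside 7.73% of all tested genes: UHRF1, E2F2, MCM5, RFC4, MCM6, RFC5 and UNG, by 1.13- to 1.42-fold. None was called lower, beside 6.65%, and voom on reads called 1 lower, beside 13.5%. In either direction 17 members had an unadjusted p under 0.05 by limma, beside 2739 of all 8317 tested genes. The median change was 0.10 against 0.00 over all tested genes, and 32 of 37 members (86.5%) were above 0 against 49.9% of all genes. The all-gene calls were 643 higher and 553 lower, or 792 and 397 after rescaling to TPM, with 33 members then above 0. With any library left out most or all of the 7 member calls were lost, as were most calls over all tested genes. In these fits 30 to 32 of the 37 members were above 0, with a median of 0.10 to 0.12.

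Of the licensing genes, CDT1, the MCM loader, moved most. It had 18.7 and 16.9 FPKM after washout, 13.6 and 15.3 with IAA, and 15.4 and 16 in control. The washout libraries were the highest of all and the IAA libraries the lowest. The change against IAA was 0.29 ± 0.079 by limma (adjusted p = 0.0777) and 0.30 ± 0.0648 on reads (voom adjusted p = 0.00056). ORC1, the origin-binding ATPase, averaged 1.71 ± 0.0502 FPKM after washout and 1.58 ± 0.0665 with IAA. CDC6, its partner in loading, averaged 14.2 ± 0.11 after washout and 13.4 ± 0.547 with IAA, and neither gene passed either test. GMNN, the geminin gene, averaged 6.31 ± 0.0735 after washout and 5.71 ± 0.244 with IAA (limma adjusted p = 0.109). For ORC6 the washout and IAA libraries overlapped, at 9.21 and 9.07 FPKM after washout and 8.96 and 9.93 with IAA.

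All 6 subunits of the MCM2 to MCM7 ring had a change above 0 against IAA, from 0.07 to 0.26 with a median of 0.15 on log2(FPKM + 1). MCM5 had 7.45 and 6.93 FPKM after washout, 5.78 and 5.87 with IAA, and 5.97 and 6.27 in control. The washout libraries lay above the other 4, and the IAA libraries were the lowest. It rose 1.23-fold (0.26 ± 0.0481, limma adjusted p = 0.0333). MCM6 had 8.57 and 8.64 FPKM after washout, 7.24 and 7.6 with IAA, and 7.67 and 7.83 in control, in the same order of groups without overlap. It rose 1.16-fold (0.19 ± 0.0392, limma adjusted p = 0.0429). On reads MCM2 and MCM7 were called as well, at 0.15 ± 0.0462 (voom adjusted p = 0.0152) and 0.17 ± 0.0384 (voom adjusted p = 0.000928). MCM2 exons overlap TPRA1, and MCM7 exons AP4M1, on the opposite strand. MCM3 and MCM4 gave 0.08 ± 0.0409 and 0.10 ± 0.0393 on reads and did not pass.

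Of the factors that activate the ring, MCM10, CDC45 and GINS2 were called on reads. CDC45, below the FPKM filter, had 495 and 484 reads after washout, 424 and 368 with IAA, and 355 and 392 in control. The washout libraries were highest, and the IAA and control libraries overlapped. Its change was 0.30 ± 0.103 on reads (voom adjusted p = 0.0296). GINS2 was at 0.26 ± 0.0825 (voom adjusted p = 0.0204), with exons that overlap GSE1 on the other strand, and MCM10 at 0.17 ± 0.0526 (voom adjusted p = 0.0194). GINS4 went the other way. It was the 1 member called lower on reads, beside 13.5% of 14825 genes (-0.23 ± 0.0772, voom adjusted p = 0.0275), and the call was lost without IAA replicate 1 or washout replicate 2.

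Replication factor C opens the clamp and loads it onto primed DNA. Its subunit RFC4 had 4.52 and 4.29 FPKM after washout, 3.72 and 3.69 with IAA, and 3.91 and 3.75 in control. The washout libraries were the highest and the IAA libraries the lowest, and it rose 1.19-fold against IAA (0.20 ± 0.0389, limma adjusted p = 0.0383). Part of its exons overlap EIF4A2 on the other strand. RFC5 had 6 and 6.1 FPKM after washout, 5.27 and 5.14 with IAA, and 5.61 and 5.65 in control. The 3 groups did not overlap, and it rose 1.16-fold against IAA (0.18 ± 0.0334, limma adjusted p = 0.0327). RFC5 exons overlap an antisense gene. RFC3, below the filter, had 1293 and 1267 reads after washout, 1080 and 1026 with IAA, and 1198 and 1182 in control. The groups had the same order as for RFC5, with a change of 0.28 ± 0.0668 on reads (voom adjusted p = 0.00216). RFC3P1, a pseudogene row, holds 18.5% as many reads as RFC3. RFC2 averaged 2.69 ± 0.0444 FPKM after washout and 2.37 ± 0.0406 with IAA (limma adjusted p = 0.072).

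POLA2 is the accessory subunit of the polymerase that lays down primers. It had 460 and 432 reads after washout, 372 and 360 with IAA, and 413 and 411 in control. The 3 groups did not overlap, and the change against IAA was 0.28 ± 0.103 (voom adjusted p = 0.0462). POLA2 exons overlap AP000944.2, a protein-coding gene on the same strand. POLE, the leading-strand polymerase (0.17 ± 0.0519, voom adjusted p = 0.0148), and FEN1, the flap nuclease of Okazaki fragments (0.19 ± 0.0464, voom adjusted p = 0.00285), were also called on reads. FEN1 exons overlap FADS2 and TMEM258. POLA1, LIG1 and RPA2 had changes of 0.01 or 0.02 on reads with SEs between 0.0688 and 0.0735, and PCNA averaged 16.9 ± 0.381 FPKM after washout and 17.6 ± 0.232 with IAA.

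Nucleotide supply had the lowest median change of the steps, 0.04 on log2(FPKM + 1). TK1 averaged 20 ± 0.476 FPKM after washout and 19.8 ± 0.42 with IAA. RRM2 averaged 38.1 ± 1.76 after washout and 38.8 ± 0.0389 with IAA, and 0 of the 4 genes passed either test. At an unadjusted p under 0.05, 0 passed by limma, beside 2739 of 8317 genes, and 1 by voom, beside 5230 of 14825. TYMS, thymidylate synthase, had the greatest change at 0.13 ± 0.0494 on reads (voom adjusted p = 0.056), with exons that overlap ENOSF1.

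UHRF1, of the chromatin genes, had the greatest change of the members, 1.42-fold higher against IAA (0.34 ± 0.0402, limma adjusted p = 0.0143). DNMT1 averaged 2.89 ± 0.00407 FPKM after washout and 2.62 ± 0.101 with IAA and was called on reads only (0.14 ± 0.0426, voom adjusted p = 0.0139). CHAF1A and CHAF1B, subunits of the nucleosome assembly factor CAF-1, and SLBP gave 0.15 ± 0.0615, 0.05 ± 0.0913 and 0.07 ± 0.0464 on reads and were not called.

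E2F2, an activating E2F factor, had 2.22 and 2.13 FPKM after washout, 1.6 and 1.62 with IAA, and 1.82 and 1.89 in control. The groups did not overlap, with washout highest and IAA lowest. E2F2 rose 1.35-fold against IAA (0.28 ± 0.0348, limma adjusted p = 0.0152). UNG, the glycosylase that removes uracil from DNA, had 12.5 and 12.7 FPKM after washout, 11.2 and 11.1 with IAA, and 11.9 in both control libraries. It showed the same order of groups and rose 1.13-fold (0.16 ± 0.0343, limma adjusted p = 0.0441). E2F1 averaged 4.45 ± 0.404 after washout and 4.12 ± 0.0893 with IAA, and its libraries overlapped. CLSPN, the checkpoint mediator claspin, averaged 1.98 ± 0.105 after washout and 2.09 ± 0.012 with IAA.

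**Figure D3:**
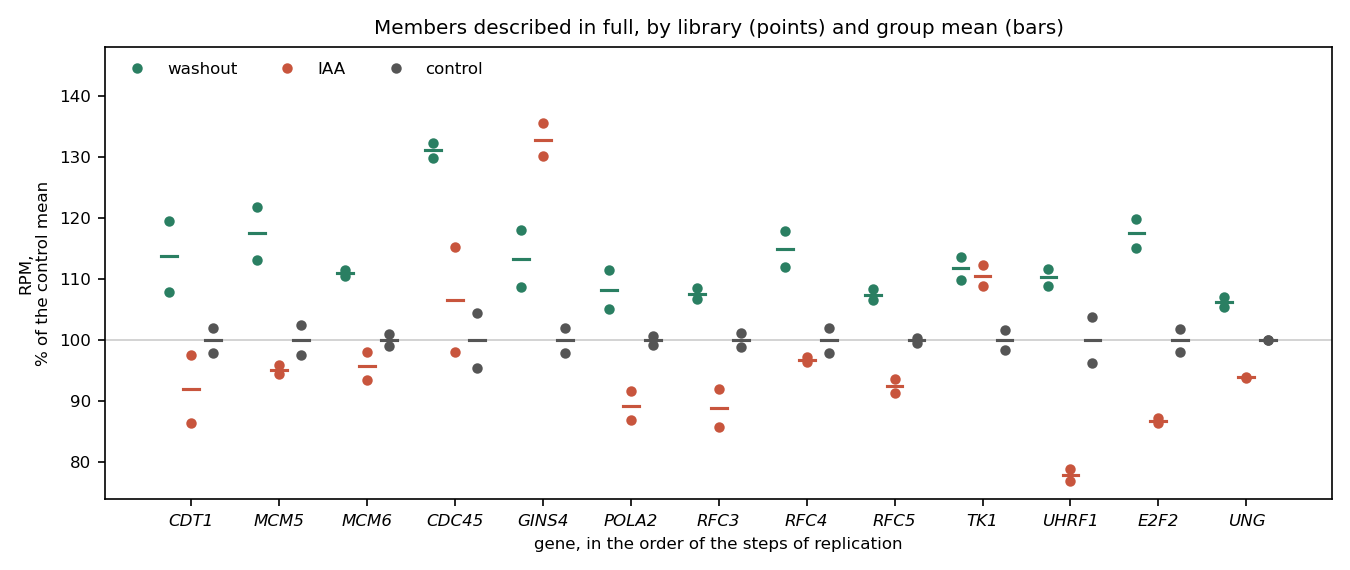
RPM of the 13 members described in all libraries, as a percentage of the control mean (vertical axis, cut at 74). Points are libraries and bars group means, with washout, IAA and control from left to right within a gene. UHRF1 has the lowest IAA points and GINS4 the highest.

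On reads, 18 of the 44 members were called higher after washout than with IAA, beside 11.4% of 14825 genes, with a median of 0.14 against -0.02 over all genes. Between 12 and 17 were called when each library was left out in turn. CDT1, E2F2, FEN1, MCM5, MCM6, MCM7, RFC5, UHRF1 and UNG, 9 in all, were called in every such fit. POLA2 was lost whichever library was left out, CDC45 without either washout library or IAA replicate 2, RFC3 without IAA replicate 2, and RFC4 without washout replicate 1. DNMT1, GINS2, MCM2, MCM10 and POLE were each lost without 2 or 3 of the IAA and washout libraries. Both washout libraries lay above both IAA libraries in 25 of the 37 tested members, beside 31.4% of all tested genes, and below them in 3 (GINS4, PCNA and CLSPN), beside 30.7%.

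**Figure D4:**
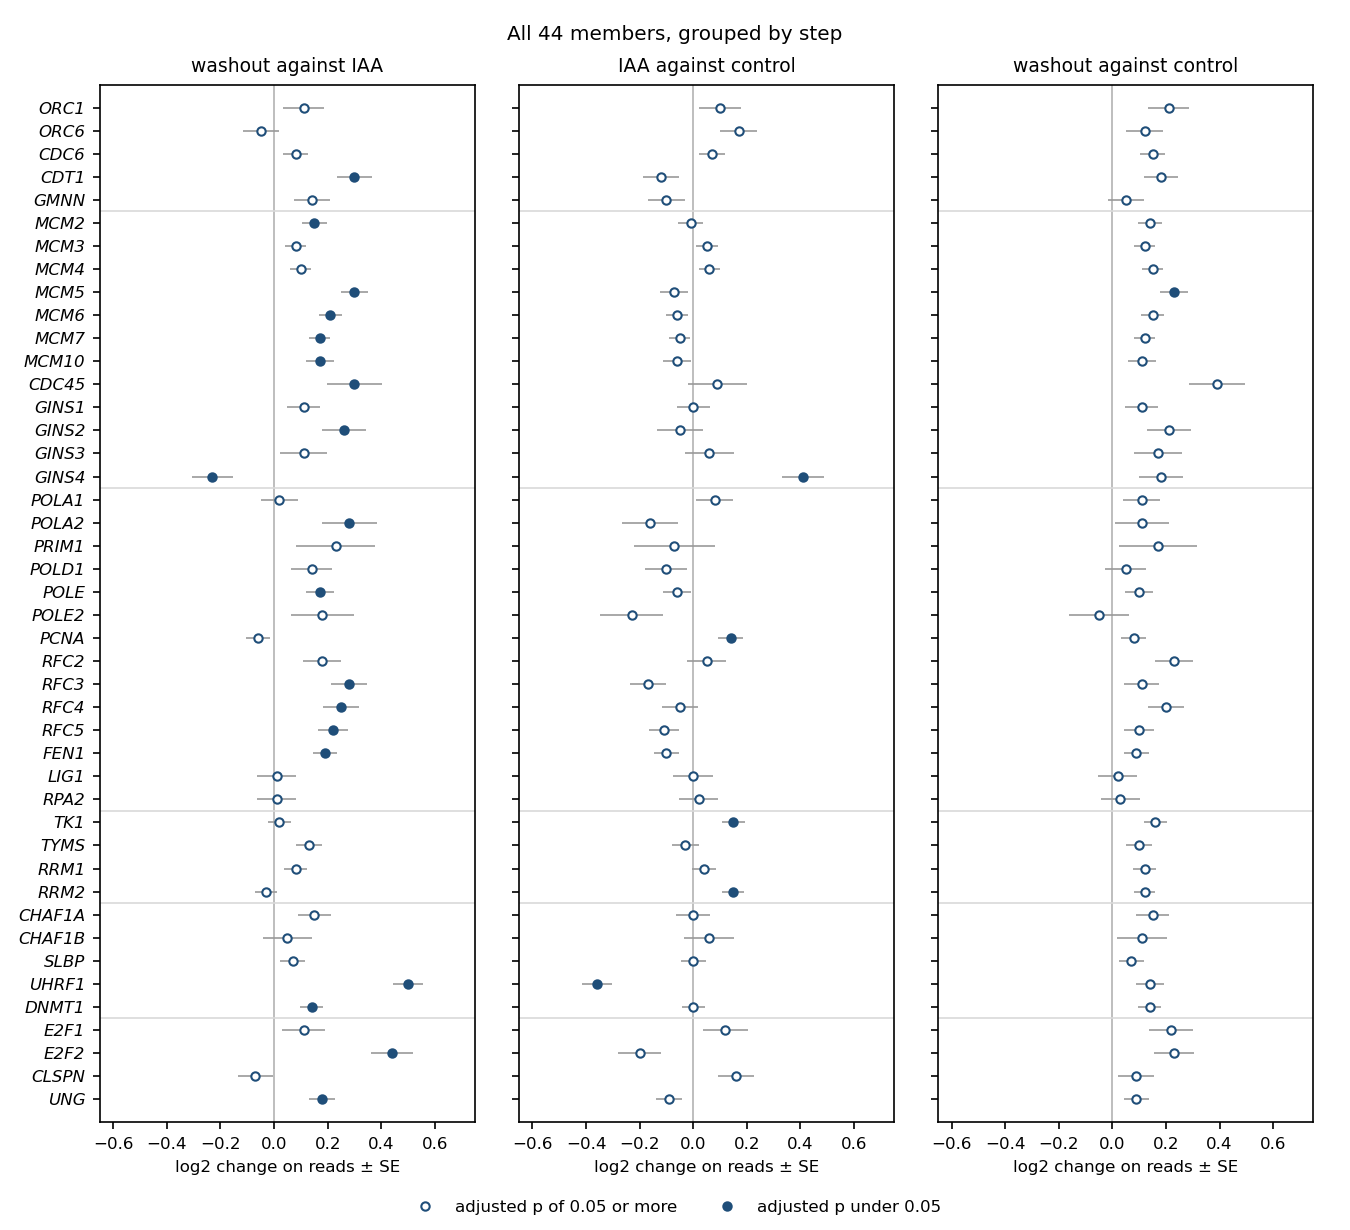
Log2 change ± SE on recovered reads (horizontal axis) of all 44 members by step, from origin licensing at the top to E2F regulators, checkpoint and repair at the bottom. Filled points have a voom adjusted p under 0.05, which are 19 against IAA after washout (18 higher, 1 lower), 5 with IAA against control and 1 after washout against control.

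Between washout and control the single genes differed little, but nearly all members leaned the same way. By limma 0 of the 37 tested members were called, beside 0% of all tested genes in each direction. An unadjusted p under 0.05 was found by limma in 18 of the 37, beside 750 of all 8317 tested genes. All 37 had a log2 change above 0, from 0.01 to 0.20 with a median of 0.10, against 55.6% of all tested genes and a median of 0.01. With median-ratio scaling 36 of 37 were above 0, after rescaling to TPM 37, and without control replicate 2 or washout replicate 1 35. On reads 43 of 44 were above 0, all but POLE2 (-0.05 ± 0.112), against 55.2% of all genes. The comparisons with IAA and with control share the washout libraries, and those with control share the control libraries, so the 3 sets of changes are not independent of one another.

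MCM5 was the 1 member called higher against control on reads, beside 0.31% of 14825 genes, at 0.23 ± 0.0505 (voom adjusted p = 0.0194). The call was lost without washout replicate 1 or either control library. None was called lower, beside 0.331%. By voom 25 members had an unadjusted p under 0.05, beside 1648 of 14825 genes. CDC45 had the greatest value at 0.39 ± 0.105, 1.31-fold (voom adjusted p = 0.0846), followed by MCM5, E2F2 at 0.23 ± 0.0754 (voom adjusted p = 0.191) and RFC2 at 0.23 ± 0.0713 (voom adjusted p = 0.162). UHRF1 had 0.14 ± 0.0524 (voom adjusted p = 0.269). Both washout libraries were above both control libraries in 32 of the 37 tested members, beside 24.4% of all tested genes, and below in 0, beside 17.8%. Of all 44 members 37 did not overlap, and the 7 that did were PRIM1, POLD1, POLE2, LIG1, RPA2, CHAF1B and CLSPN. RPA2 has pseudogene rows with 65.3% (RPA2P2) and 33.2% (RPA2P3) of its own reads.

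**Figure D5:**
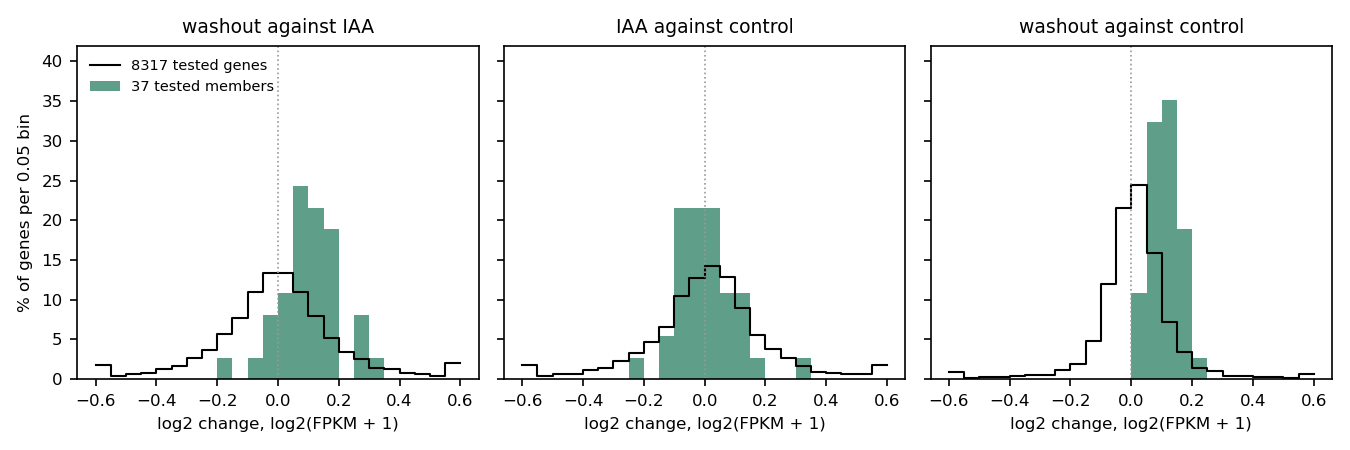
Share of genes per 0.05 bin of log2 change on log2(FPKM + 1) for the 37 tested members (filled) and all 8317 tested genes (line), with the outermost bins holding all values beyond. After washout against control no member lies below 0, and the member medians are 0.10, 0.00 and 0.10 from the left panel to the right.

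By mean FPKM the order of the groups was washout, control, IAA in 22 members and washout, IAA, control in 16. It was IAA, washout, control in 5 and control, washout, IAA in 1. The share of each order over all tested genes was not computed, so these counts are not read as a result about the members. The median member stood at 110% and 109% of the control mean in the washout libraries, at 100% and 98% in the IAA libraries, and at 99.8% and 100% in control. The washout medians were above those of control in each of the 6 steps, lowest for polymerases and fork factors (107% and 106%) and between 107% and 111% in the others.

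Of 80 other replication genes with 1 row each, 56 passed the FPKM filter. With IAA 2 rose (ASF1B, a histone chaperone, and E2F7, a repressive E2F), beside 6.64% of all tested genes, and 4 fell, beside 6.49% (TOP1, the topoisomerase that relaxes DNA ahead of the fork, CDCA7, and the nucleotide synthesis enzymes CTPS1 and PAICS). ASF1B had 6.08 and 5.65 FPKM after washout, 6.59 and 6.64 with IAA, and 4.78 and 5.24 in control (0.34 ± 0.0558 with IAA, limma adjusted p = 0.0275). TOP1 had 4.85 and 4.9 after washout, 4.07 and 4.08 with IAA, and 5.19 and 5.55 in control (-0.33 ± 0.0405, limma adjusted p = 0.0155). After washout against IAA 19 of the 56 had an unadjusted p under 0.05 by limma, beside 2739 of all 8317 tested genes. Voom called 5 of 80 lower, beside 13.5% of 14825 genes. By limma 8 of the 56 rose, beside 7.73% of all tested genes, and none fell, beside 6.65%. The 6 with the greatest change were CDC7, the kinase that fires origins, CDCA7, CTPS1, PAICS, CCNE1 (cyclin E1) and TOP1. CDC7 had 3.24 and 3.37 FPKM after washout, 2.43 and 2.41 with IAA, and 2.95 and 2.63 in control (0.33 ± 0.0517 against IAA, limma adjusted p = 0.0245). Between washout and control 0 were called by limma, with 3 at an unadjusted p under 0.05, beside 750 of all 8317 tested genes. After washout 38 of the 56 (67.9%) were above 0 against IAA and 41 (73.2%) against control, each with a median of 0.04, beside 86.5% and 100% of the 37 members, each with a median of 0.10.

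Of 24 G2 and mitosis genes 22 passed the filter. With IAA 5 rose (CDK1, HMMR, KIF20A, NDC80 and NUSAP1), beside 6.64% of all tested genes, and their median was 0.07 beside 0.00 for the 37 replication genes. After washout against IAA 3 of them fell (CDK1, HMMR and KIF20A), beside 6.65%, with a median of -0.12 beside 0.10. KIF20A, a kinesin of cell division, had 11.5 and 12.6 FPKM after washout, 15.6 and 15.3 with IAA, and 12.3 and 12.5 in control. On reads 10 of these 24 genes were higher with IAA, beside 13.7% of 14825 genes, and 12 lower after washout than with IAA, beside 13.5%. Between washout and control 0 were called by limma, and 7 of the 22 were above 0, beside 55.6% of all tested genes. Their median was then -0.01, beside 0.10 for the 37 replication genes. These are counts side by side, and the difference between the lists was not tested.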

How the data were processed

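Gene expression was measured by RNA-seq in 6 libraries, 2 per group. Per the submitters' processing notes the authors used HISAT, Bowtie2, HTSeq and edgeR with hg19, without versions or roles. Annotation release, counted strand and filters are not stated. The deposited values are FPKM, made by the authors, 1 per gene and library.

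The FPKM steps showed that the divisor was the whole gene span: 79.3% of 3131 low genes agreed on 1 library size with the span of GENCODE 29 (GRCh38, used for lengths and overlaps only) and 27.3% with the exon length. Whole reads were recovered for 100% of 21707 genes above 0 (tolerance 0.02 reads). For 2327 of these, whose span did not fix the reads, the nearest or smallest whole solution was taken. Recovered reads summed to 105.1 to 105.5% of the library totals. Recovery and both tests were tested on simulated data.

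Log2(FPKM + 1) was fitted with limma 3.58.1 (R 4.3.3) as the main test, for genes at a mean FPKM of at least 1, a mean per group, a trend in the prior variance, 3 residual and 1.81 prior degrees of freedom, two-sided, Benjamini-Hochberg over all genes tested. Log2 changes on this scale are smaller than on reads for low genes. The alternative on reads was limma voom (mean of at least 10 reads, 14825 genes, 28.8 prior degrees of freedom). Each comparison is the group named first minus the second, folds are ratios of mean FPKM, errors are SD beside levels and SE beside log2 changes. Other alternatives changed the pseudocount, filter, scaling, prior, groups fitted, replicate block and libraries.

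The members and all gene lists were chosen with earlier results of these data known, so no test was made on a list as a whole. Values in all libraries are given for members called by limma, for members under the filter called on reads, and for the member of greatest change in a step with neither. Other lists are named where called, up to 6 a comparison by size. RBL1 and CKS1B (2 rows each) and PECAM1 (0 rows) were left out, and 1 gene called on reads is not reported here.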

Additional observations from a re-analysis of the deposited data

How the results depend on the processing

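In the comparison of washout with IAA limma called 7 members higher and 0 lower, beside 643 and 553 of 8317 genes. With no filter on low FPKM 4 were called higher, beside 453 higher and 484 lower of 21707 genes. When only the 2 groups were fitted 2 were, beside 218 and 195 of 8317. With any library left out most or all of the 7 were lost, as were most calls over all tested genes. The fit on recovered reads called 18 higher and 1 lower, beside 1690 and 2007 of 14825. The lower call was lost in some fits with a library left out. By limma, rescaling to TPM called RFC2, MCM10 and MCM7 higher besides the 7, and leaving out the trend in the prior added MCM7. RFC4 and MCM6 were lost with filter and pseudocount 0.1, where 641 of 14809 genes were called higher and 614 lower. The member median, 0.10, was 0.14 at pseudocount 0.1, with or without a filter at 0.1, 0.06 at pseudocount 5 and 0.09 with no filter. It was 0.13 after rescaling to TPM, 0.14 on reads, and 0.10 to 0.12 with a library left out. The counts of other replication genes that follow sum both directions, which on reads were 15 higher and 5 lower. Of the other replication genes 8 were called, against 2 with no filter, 4 with filter and pseudocount 0.1, 20 on reads, 1 in the fit of 2 groups and 0 to 1 with a library left out. Of the G2 and mitosis genes 3 were called, against 12 on reads and 0 both in the fit of 2 groups and with any library left out. Of the 3 members under the filter called on reads, 0 to 2 were called with a library left out, and 0 by limma with no filter or with filter and pseudocount 0.1.

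For IAA against control 1 member was called higher and 1 lower, beside 552 and 540 of 8317 genes. No filter gave 0 and 0, beside 480 and 401 of 21707. The fit of 2 groups gave 0 lower, beside 266 of 8317. With a library left out UHRF1 was always lost and GINS4 in some fits, while calls became fewer over the whole table. On reads 4 were called higher, beside 2033 of 14825. With median-ratio scaling of the reads 2 were higher and 4 lower, beside 1605 and 1877. The median, 0.00, was -0.03 after rescaling to TPM, -0.01 with median-ratio scaling and -0.01 to 0.00 with a library left out. On reads it was 0.00, or -0.04 with median-ratio scaling. The counts of other replication genes that follow sum both directions. Those were 2 higher and 4 lower by limma, and 8 higher and 12 lower on reads. Of the other replication genes 6 were called, against 2 with no filter, 20 on reads, 1 in the fit of 2 groups and 0 to 1 with a library left out. Of the G2 and mitosis genes 5 were called, against 1 with no filter, 3 after rescaling to TPM, 10 on reads, 1 in the fit of 2 groups and 0 to 1 with a library left out.

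For washout against control 0 members were called, and the fit on reads called 1 higher, beside 46 of 14825 genes. Which members were called on reads changed with the library left out. The fit on reads with all libraries called 1 of the other replication genes. The median, 0.10, was 0.12 at pseudocount 0.1, with or without a filter at 0.1, 0.06 at pseudocount 5, 0.09 with median-ratio scaling, 0.12 on reads and 0.10 to 0.12 with a library left out. The cause of these shifts was not tested beyond the fewer libraries or the other genes and scale that each setting has by construction, and 0 of the results here changed sign where called.

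Libraries of the same replicate number did not deviate together. The deviations of replicate 1 from the group means correlated across 8317 genes at 0.0432 (control and IAA), -0.0269 (control and washout) and 0.00601 (IAA and washout). These correlations cannot show whether libraries were prepared in pairs. With the replicate block limma called 2 members higher after washout against IAA, 0 of the other replication genes and 0 of the G2 and mitosis genes. Over all 8317 genes it called 293 higher and 239 lower. For IAA against control the block gave 1 member higher, 0 lower, 1 of the other replication genes and 0 of the G2 and mitosis genes. Over all genes it gave 239 higher and 247 lower. On reads the block left 18 members called higher after washout than with IAA, beside 1658 of 14825 genes.

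With 2 libraries per group limma has few degrees of freedom, and fewer still once a library is left out. PRIM1 has the fewest reads of the members, 186 to 249 per library, and the widest SE on reads.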
